A study of Mus musculus with 20 samples.

Results

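Cerebellins, neurexins and neuroligins were followed in single cells of the mouse habenula. The 9 genes described are the cerebellins Cbln1, Cbln2, Cbln3 and Cbln4, the neurexins Nrxn2 and Nrxn3, and the neuroligins Nlgn1, Nlgn2 and Nlgn3. They were chosen by symbol, and all 9 were found among the 37994 genes of the developmental tables and among the 36104 genes of a second set of E18 tables. The developmental series holds 15 plates of 384-well CEL-seq2 single-cell RNA sequencing from the Brn3a-tauLacZ mouse line, in which a lacZ reporter marks Brn3a (the older name of Pou4f1). It has 2 plates each at E11, E13, E15, E18, P4, P7 and adult, and 1 plate at E12. The second set holds 5 plates of C57BL/6 habenula at E18, with 2 plates of the left side, 2 of the right side and 1 of both sides. Reporter zygosity, any sort gate, the sex of the animals and the number of animals pooled for a plate are not stated for these plates. The p-values of the main fits therefore measure the spread between plates, which may be technical.

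Cerebellins are small secreted proteins of the C1q family that sit in the synaptic cleft. They bind neurexins on the axon terminal, and through postsynaptic receptors such as Grid1 they tie the terminal to the postsynaptic cell. Neuroligins are postsynaptic partners of the same neurexins, with Nlgn1 best known at excitatory and Nlgn2 at inhibitory synapses. The habenula is a small epithalamic nucleus whose medial part sends peptide-rich and cholinergic axons to the interpeduncular nucleus, and Cbln2 and Cbln4 are known from medial habenula neurons that project there. Cells of a sending nucleus can carry members of either kind, since they also receive synapses.

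The results below turn most on Cbln4 and Nrxn3, and the 250 bases before their start sites are shown to place both genes. Cbln4 lies on chromosome 2 (chr2:172036233-172043466, minus strand, GRCm38) and has 1 start in the RefSeq promoter table. Nrxn3 lies on chromosome 12 (chr12:88722876-90334935, plus strand) and has 3 listed starts, all of them inside these bounds. The windows of the first and the last are printed, and neither lies at the annotated 5′ end of the gene. The sequences come from RefSeq (GRCm38.p6), run 5′ to 3′ on the gene's strand and end at the base before the start. Capitals mark every CANNTG, the E-box core bound by basic helix-loop-helix factors, which reads the same on both strands.
Cbln4, chr2:172043467-172043716: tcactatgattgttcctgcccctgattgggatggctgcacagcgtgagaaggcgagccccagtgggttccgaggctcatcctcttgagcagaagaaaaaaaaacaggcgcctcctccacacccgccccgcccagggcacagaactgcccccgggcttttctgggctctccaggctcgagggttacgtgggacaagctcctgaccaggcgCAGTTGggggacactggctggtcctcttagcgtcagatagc
Nrxn3, first start, chr12:88794254-88794503: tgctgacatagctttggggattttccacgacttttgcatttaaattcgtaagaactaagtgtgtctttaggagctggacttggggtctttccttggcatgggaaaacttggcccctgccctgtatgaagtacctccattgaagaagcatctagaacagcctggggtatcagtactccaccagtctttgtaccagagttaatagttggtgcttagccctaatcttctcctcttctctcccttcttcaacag
Nrxn3, last start, chr12:89812233-89812482: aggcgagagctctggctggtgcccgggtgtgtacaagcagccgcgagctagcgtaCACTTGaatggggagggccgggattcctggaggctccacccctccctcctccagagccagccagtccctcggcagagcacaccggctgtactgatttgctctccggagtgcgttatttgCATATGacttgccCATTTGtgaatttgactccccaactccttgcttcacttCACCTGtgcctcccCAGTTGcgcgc
The Cbln4 window holds 1 CANNTG, the first Nrxn3 window 0 and the last Nrxn3 window 5. Of 32851 windows of this length in the table, 66.22% hold at least 1. The homeodomain-type motifs TAATTA (4.84% of windows) and ATTAAT (4.386%, both strands searched) occur in none of these 3 windows. A match is a description of letters, and the deposited counts do not separate the starts of Nrxn3. The first Nrxn3 window ends in a stretch of mostly c and t shortly before a closing cag. Whether transcription begins at this listed start was not tested, so its window may not be a promoter.

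A well was kept with at least 1000 counts, at least 500 genes and at most 20% mitochondrial counts, which left 3729 of 5756 developmental wells and 1082 of 1920 wells of the second set. Summed counts per plate ran from 758697 (adult replicate 1, 56 kept wells) to 7760372 (P7 replicate 1). Wells with at least 1 count of Pou4f1, a transcription factor of habenular neurons, made up 46.2% to 92.2% of the kept wells on 18 plates, 37.5% on adult replicate 1 and 28.1% on E18 replicate 1. E18 replicate 1 had the lowest summed level of 10 neuronal markers (3272 CPM, a gene's counts per 1000000 counts of the plate) and the highest of 9 progenitor markers (3739 CPM) of the 20 plates. E13 replicate 2 had the highest sums of ependymal and choroid plexus markers (3845 CPM, and 2485 CPM in its Pou4f1-positive wells) and of vascular markers (1637 CPM). Its neuronal markers summed to 5600 CPM, against 10502 CPM on E13 replicate 1. Oligodendrocyte markers summed to 10481 and 3034 CPM on the adult plates, against 473 CPM or less on every other plate. The 9 medial habenula markers summed to 226 and 245 CPM at E11 and to 3101 and 3122 CPM at P7, and none of them was at 0 from P4 onward. Levels are over all kept wells unless Pou4f1-positive wells are named, stage differences were tested in both, and the plate is the replicate throughout. In sums over all kept wells, fewer cells of a type and less RNA per cell cannot be told apart.

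Cbln2 (ENSMUSG00000024647, chr18:86711110-86718283, plus strand) was low at E11 and higher from E13 onward, with E18 replicate 1 close to the E11 plates. Its level, in CPM over all kept wells, was 20.3 and 27.4 at E11, 99.0 at E12, 359 and 185 at E13, 371 and 821 at E15, and 33.9 and 461 at E18. The plates of P4 gave 228 and 207 CPM, those of P7 240 and 312, and adult plates 212 and 215. Every plate from E13 onward lay above both E11 plates. The low plate, E18 replicate 1, was low within Pou4f1-positive wells too, at 73.5 CPM against 485 on E18 replicate 2, and the medial habenula markers summed to 154 against 744 CPM in those wells. Progenitor markers summed to 1707 against 166 CPM there, ependymal and choroid plexus markers to 1431 against 18.6, and astrocyte markers to 1120 against 199. The part of these cell types in the Cbln2 difference was not tested. The P4 and adult plates overlapped, and all 6 plates from P4 onward lay between 207 and 312 CPM. From E11 to P7 Cbln2 rose 11.9-fold over all kept wells (log2 fold change 3.58 ± 0.92 SE, n = 2 plates a stage, edgeR adjusted p = 0.0145) and by 3.58 ± 0.68 in Pou4f1-positive wells (edgeR adjusted p = 0.0017). Most of that rise lay between E11 and E13, where Pou4f1-positive wells changed by 3.65 ± 0.68 (edgeR adjusted p = 0.0211) and all kept wells by 3.37 ± 0.92 (edgeR adjusted p = 0.093). Over all kept wells the E11 to P7 call was lost without E11 replicate 1 (adjusted p = 0.111), E11 replicate 2 (0.0846) or P7 replicate 2 (0.0552, edgeR), while the Pou4f1-positive call was kept under each of these. The E11 to E13 call in Pou4f1-positive wells was lost without E11 replicate 1 (3.29, edgeR adjusted p = 0.253), E11 replicate 2 (3.85, 0.199) or E13 replicate 2 (3.82, 0.0809).

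Cbln4 (ENSMUSG00000067578) was low at E11, E13 and E15 and high after birth. Its level was 14.1 and 18.4 CPM at E11, 63.4 at E12, 4.54 and 2.12 at E13, 8.14 and 22.3 at E15, and 20.0 and 105 at E18. After birth the P4 plates held 125 and 125 CPM, the P7 plates 189 and 185, and the adult plates 136 and 171. All 6 plates from P4 onward lay above all 9 earlier plates. The adult plates lay between the P4 and the P7 plates, and neither the step from P4 to P7 nor that from P7 to adult passed the test. In a fit of the 4 plates of P4 and P7 alone, the step from P4 to P7 passed (0.57, edgeR adjusted p = 0.0181). From E11 to P7 Cbln4 rose 11.9-fold (log2 3.57 ± 0.65 SE, edgeR adjusted p = 0.00243), and by 3.55 ± 0.39 in Pou4f1-positive wells (edgeR adjusted p = 3.66e-05). No plate that was left out ended this call in either set of wells. The step from E15 to E18 in Pou4f1-positive wells was 2.25 ± 0.41 (edgeR adjusted p = 0.0541), which missed the threshold of 0.05, and it passed without E18 replicate 1 (2.66, 0.0473).

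**Figure D1:**
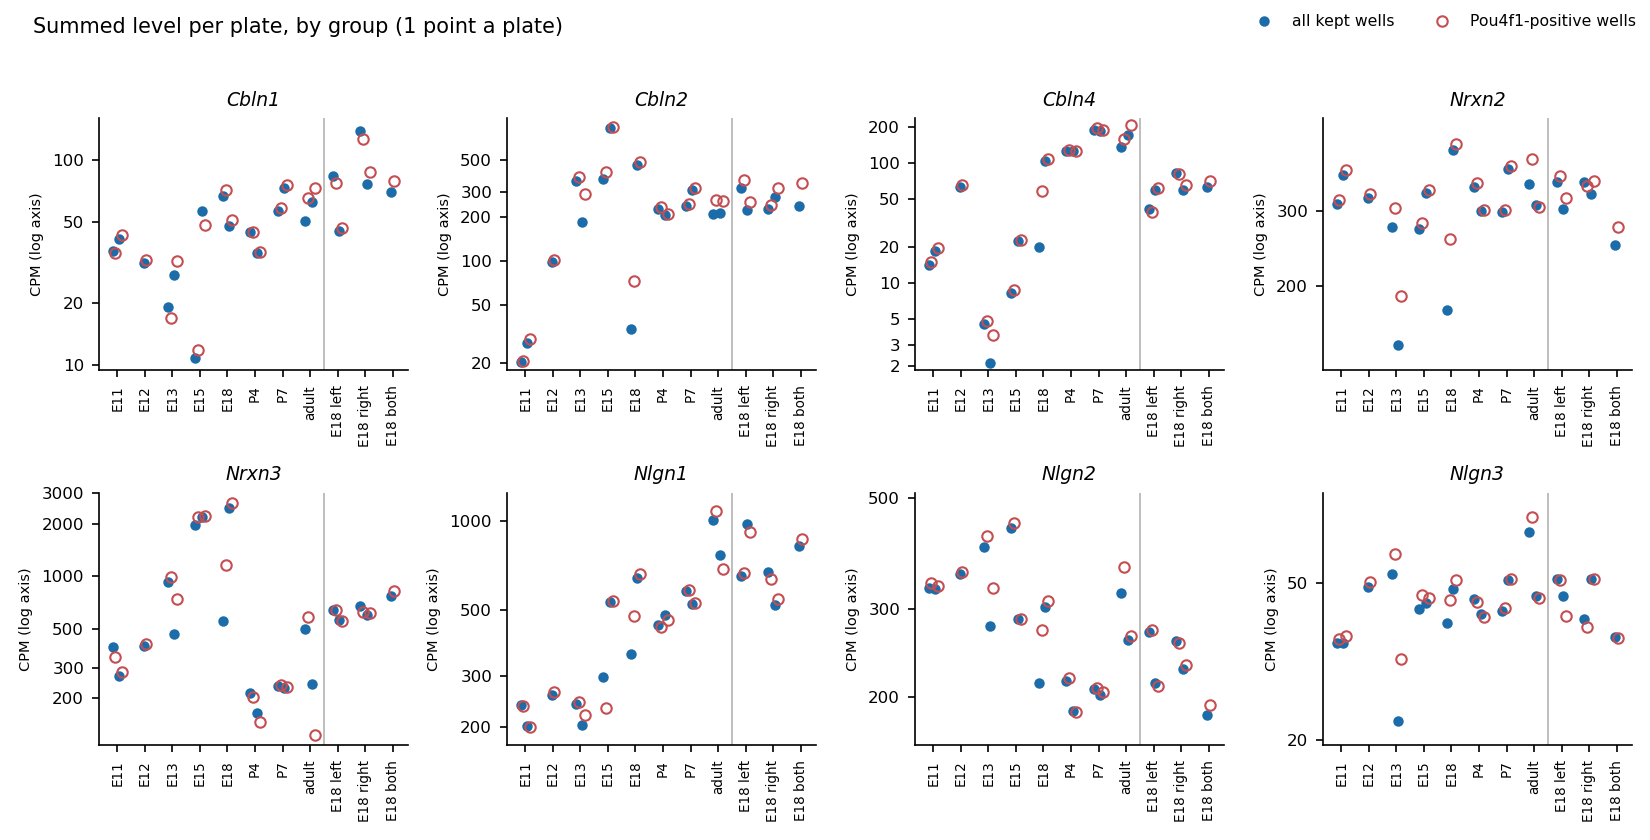
Level of 8 members in CPM on a log axis, 1 point a plate, with plates grouped by stage on the horizontal axis and the second E18 set right of the grey line (filled points, all kept wells; open points, Pou4f1-positive wells). Cbln2 sits at 20.3 and 27.4 CPM at E11, Cbln4 lies at 125 CPM or higher on every plate from P4 onward, and Nrxn3 is highest at E15 and on E18 replicate 2.

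Because deeper wells show more genes, each well was thinned to 2000 UMIs (unique molecular identifiers, 1 per captured molecule), and the expected share of wells with at least 1 UMI was taken over wells at least that deep (305 of 309 and 339 of 345 wells at E11, 324 of 326 and 282 of 294 at P7). For Cbln2 this share was 3.85% and 4.23% at E11, 39.0% and 17.0% at E13, and 34.7% and 44.2% at P7, and without thinning 19.1%, 18.0%, 62.7%, 37.2%, 87.4% and 86.4%. For Cbln4 it was 2.74% and 3.06% at E11, 1.34% and 0.515% at E13, 1.46% and 2.93% at E15, and 27.3% and 27.7% at P7, and without thinning 12.6% and 11.3% at E11 and 75.5% and 70.4% at P7. Vascular wells were 123 wells with no Pou4f1 count and 10 or more counts of vascular markers, pooled over all series plates. Whether such cells express either gene was not tested, and the neuronal markers in these wells summed to 719 CPM. The same share in them was 3.12% for Cbln2 and 2.87% for Cbln4. Their median depth was 5953 counts, against 8133 to 14813 on the E11, E13 and E15 plates. Over all kept wells Cbln4 at E11, E13 and E15 lay at 3.06% or less, close to its share in the vascular wells. Cbln2 at E11 was close to its own as well, and its E11 levels of 20.3 and 27.4 CPM lay within the interval of the vascular wells (18.0 CPM, 95% Poisson interval 10.7 to 28.4, counting error only). For Cbln4 the vascular wells held 8.99 CPM (4.11 to 17.1). E11 replicate 1 lay within that interval, and E11 replicate 2 and E15 replicate 2 lay above it. Other classes of wells taken in the same way gave Cbln4 at 23.6 CPM (oligodendrocyte lineage, 16.8 to 32.3), 10.7 CPM (astrocyte) and 7.05 CPM (progenitor). The vascular wells were pooled over the stages, so they do not measure the background of the E11 plates. The E11 to P7 folds of both genes are taken against low E11 levels, whose background was not measured. At E12 the Cbln4 share was 8.20%.

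**Figure D2:**
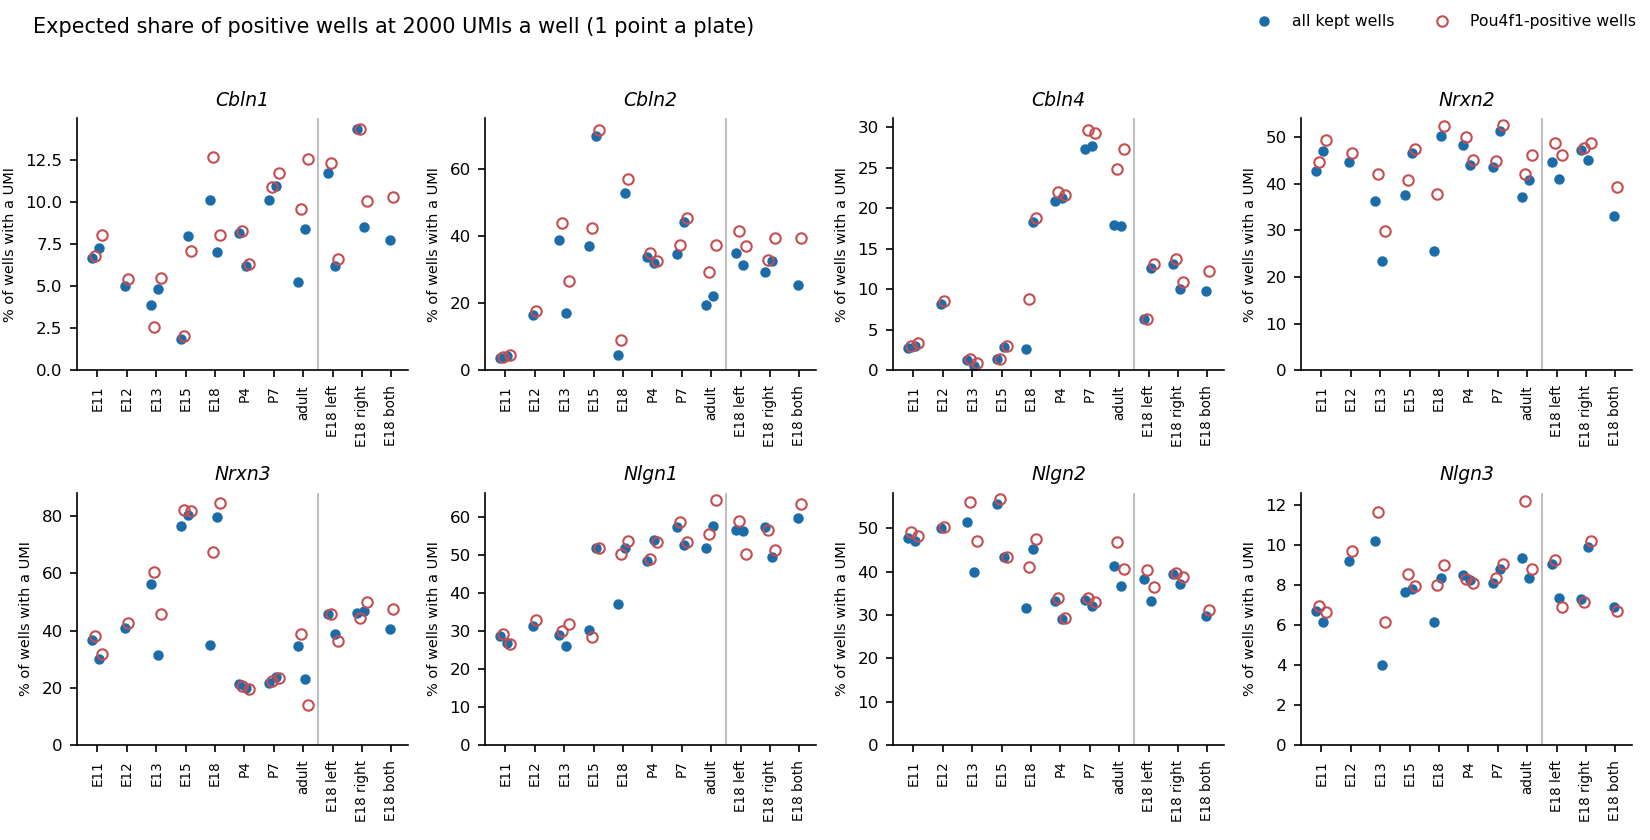
Expected share of wells (%) with at least 1 UMI at 2000 UMIs a well, 1 point a plate, by stage (filled points, all kept wells; open points, Pou4f1-positive wells; second E18 set right of the grey line). Over all kept wells the Cbln4 share is 3.06% or less on the E11, E13 and E15 plates and 27.3% and 27.7% at P7, and the Nrxn3 share is 35.1% and 79.5% on the E18 series plates and 21.5% and 20.0% at P4.

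Cbln1 (ENSMUSG00000031654, chr8:87468405-87472609, minus strand), the founding member that links parallel fibres to Purkinje cells in the cerebellum, was counted on every plate. It stood at 35.9 and 41.1 CPM at E11, 31.6 at E12, 19.3 and 27.6 at E13, 10.9 and 56.2 at E15, and 66.7 and 47.5 at E18. The plates of P4 gave 44.8 and 35.1 CPM, those of P7 56.5 and 73.0, and adult plates 50.2 and 62.1. The E15 plates differed from each other by more than any 2 stage means did. Its E11 to P7 difference did not pass the test over all kept wells (0.79 ± 0.49, edgeR adjusted p = 0.242) or in Pou4f1-positive wells (0.84 ± 0.42, 0.138), and nor did any step between neighbouring stages. It passed in Pou4f1-positive wells with no low-count filter (0.84, edgeR adjusted p = 0.0225), where its SE was 0.285. SEs without the filter were nearly alike for several members, so that p-value says little on the spread of Cbln1 between plates. Over all kept wells it passed in the fit of the 4 E11 and P7 plates alone (0.76, edgeR adjusted p = 0.00125). The step from P4 to P7 passed in the fit of its own 4 plates (0.68, edgeR adjusted p = 0.0433). The share of all genes called in these fits is not given here. The long noncoding gene Gm2694, on the other strand, overlaps an exon of Cbln1, and whether strand was used in counting is not given.

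Cbln3 (ENSMUSG00000040380, chr14:55878913-55884392, minus strand), a granule cell protein of the cerebellum that is secreted together with Cbln1, was close to undetected. In all it gave 33 UMIs in 28 of 4811 kept wells, and its highest plate level was 1.23 CPM. In the series no UMI was seen on E11 replicate 1, the E12 plate, either E13 plate, E18 replicate 2 or adult replicate 1. A count of 0 allows a share of wells with a UMI of up to 1.03% of the 291 E12 wells and 5.36% of the 56 wells of adult replicate 1. These limits cover counting error and are not limits on wells expressing the gene. It did not pass the filter on low counts in any comparison, so 8 of the 9 members were tested.

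Nrxn3 (ENSMUSG00000066392) was highest on the E15 plates and E18 replicate 2, and lower after birth. Of the steps between neighbouring stages, only its fall from E18 to P4 passed the test. Its level was 392 and 270 CPM at E11, 400 at E12, 931 and 469 at E13, 1980 and 2195 at E15, and 555 and 2451 at E18. After birth the P4 plates held 216 and 165 CPM, the P7 plates 236 and 231, and the adult plates 502 and 243. In Pou4f1-positive wells it was 2176 and 2227 CPM at E15, 1166 and 2615 at E18, and 205 and 147 at P4. The E15 and E18 plates lay above every E11, P4 and P7 plate, and the P4 and P7 plates lay below both E11 plates. The step up from E13 to E15 did not pass over all kept wells (1.69, edgeR adjusted p = 0.293) or in Pou4f1-positive wells (1.44, 0.321). E11 to E15 was not tested. From E18 to P4 Nrxn3 fell by 2.82 ± 0.65 on the log2 scale over all kept wells (edgeR adjusted p = 0.0144), and by 3.29 ± 0.58 in Pou4f1-positive wells (edgeR adjusted p = 0.00283). The E11 to P7 difference was -0.45 ± 0.61 (edgeR adjusted p = 0.609), and it passed in the fit of the 4 E11 and P7 plates alone (-0.48, 0.0163). The gene Gm37980, on the other strand, overlaps an exon of Nrxn3.

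The fall of Nrxn3 rested on few plates. Without E18 replicate 2 it measured -1.17 over all kept wells (edgeR adjusted p = 0.0625), without P4 replicate 1 -2.96 (0.0865), without P4 replicate 2 -2.64 (0.124), and in a fit of the 4 plates alone -2.91 (0.121). In Pou4f1-positive wells only leaving out P4 replicate 2 ended the call (-3.01, edgeR adjusted p = 0.0518). On the C57BL/6 plates of E18, which differ from the series in mouse line and set, Pou4f1-positive wells held 644 and 558 CPM on the left, 626 and 618 on the right and 824 for both sides, below both series plates of that age and above all 4 plates of P4 and P7. The difference between the 2 sets was not tested.

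Nrxn2 (ENSMUSG00000033768, chr19:6418731-6544169, plus strand) showed no difference between stages that passed the test. Its lowest plate was E13 replicate 2 with 146 CPM and its highest E18 replicate 2 with 417 CPM, while both E11 plates (310 and 363), both P4 plates (341 and 299), both P7 plates (298 and 376) and both adult plates (346 and 309) overlapped. Its E11 to P7 difference was 0.05 ± 0.41 (edgeR adjusted p = 0.945), and 0.04 ± 0.31 in Pou4f1-positive wells (0.931). The genes Gm14964 and Slc22a12, on the other strand, overlap exons of Nrxn2, so part of its count is uncertain.

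Nlgn1 (ENSMUSG00000063887, chr3:25426215-26332460, minus strand) was the neuroligin that increased. Its level was 238 and 202 CPM at E11, 258 at E12, 240 and 204 at E13, 296 and 533 at E15, and 355 and 641 at E18. The plates of P4 gave 444 and 482 CPM, those of P7 582 and 524, and adult plates 1013 and 771. Every plate from P4 onward lay above every plate up to E13, and both adult plates lay above both P7 plates. From E11 to P7 Nlgn1 rose 2.60-fold (log2 1.38 ± 0.37 SE, edgeR adjusted p = 0.0174), and by 1.41 ± 0.36 in Pou4f1-positive wells (edgeR adjusted p = 0.00945). Over all kept wells the call was lost when any 1 of the 4 plates was left out (adjusted p from 0.0562 to 0.126) and without wells holding 10 or more oligodendrocyte counts (1.37, edgeR adjusted p = 0.0793), with the size between 1.29 and 1.50. In Pou4f1-positive wells it was lost without E11 replicate 1 (0.0697), E11 replicate 2 (0.104) or P7 replicate 1 (0.0761, edgeR adjusted p). The antisense gene A830092H15Rik overlaps an exon of Nlgn1.

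The step of Nlgn1 from P7 to adult did not pass the test, and other cells were present there. Wells with no Pou4f1 count and 10 or more oligodendrocyte counts were pooled over all series plates, not the adult plates alone. In these 165 wells Nlgn1 stood at 1002 CPM (95% Poisson interval 954 to 1051, counting error only). In 238 wells taken in the same way by astrocyte markers it stood at 760 CPM. Those markers summed to 1528 CPM on E18 replicate 1, the plate highest in progenitor markers, and to 1617 and 1003 CPM on the adult plates. How many of the 238 wells held astrocytes was not tested. In Pou4f1-positive wells alone the adult plates gave 1088 and 688 CPM, and the oligodendrocyte markers in those wells summed to 4579 and 450 CPM, against 139 and 34.2 CPM at P7. The part of glial RNA in the adult level was not tested.

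Nlgn2 (ENSMUSG00000051790, chr11:69823122-69837784, minus strand) lay lower on all 6 plates after birth than on both E11 plates over all kept wells, while in Pou4f1-positive wells adult replicate 1 (365 CPM) lay above both E11 plates (338 and 333). Over all kept wells it measured 331 and 329 CPM at E11, 353 at E12, 400 and 277 at E13, 435 and 287 at E15, and 213 and 302 at E18. After birth the P4 plates held 215 and 187 CPM, the P7 plates 207 and 201, and the adult plates 323 and 260. The E11 to P7 difference was -0.64 ± 0.29 over all kept wells (edgeR adjusted p = 0.121) and -0.64 ± 0.25 in Pou4f1-positive wells (edgeR adjusted p = 0.0607). It passed in Pou4f1-positive wells by DESeq2 (-0.67, adjusted p = 0.0338) and with 2 or more Pou4f1 counts as the cut (-0.68, edgeR adjusted p = 0.0331), and over all kept wells in the fit of the 4 plates alone (-0.67, edgeR adjusted p = 7.83e-05). Nlgn3 (ENSMUSG00000031302, chrX:101299168-101325963, plus strand), a neuroligin of excitatory and inhibitory synapses, ranged from 22.3 CPM on E13 replicate 2 to 67.3 CPM on adult replicate 1 and differed by 0.45 ± 0.34 from E11 to P7 (edgeR adjusted p = 0.333), and by 0.43 ± 0.26 in Pou4f1-positive wells (0.225). In the fit of the 4 plates alone it passed over all kept wells (0.42, edgeR adjusted p = 0.0148). The gene Gm21986, on the same strand, overlaps an exon of Nlgn3.

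These counts are read against the share of all genes that passed the same test. From E11 to P7, 3 of 8 tested members rose and 0 fell over all kept wells, where 28.6% of 17453 genes were called. In Pou4f1-positive wells it was again 3 of 8 members against 35.0% of 16353 genes, so the share of members called (37.5%) was near the background in both. The median log2 fold change of the 8 members was 0.62, beside 0.03 over all genes. Over all kept wells 0 of 8 members changed from E11 to E13 (1.45% of genes called), from E13 to E15 (0.0917%), from E15 to E18 (0.195%), from P4 to P7 (0.00573%) and from P7 to adult (3.58%), with 2, 3, 1, 0 and 0 members at an unadjusted p under 0.05 in edgeR, and 1 of 8 changed from E18 to P4 (19.6%). By DESeq2, 2 members were called from E11 to E13 and 0 in the other 4 of those steps without an edgeR call. The share of all genes that DESeq2 called is not given, here or for Pou4f1-positive wells. Leaving out E18 replicate 2 leaves 1 E18 plate, the one with few Pou4f1-positive wells, and no spread at E18. The log2 fold changes were then -4.39 for Cbln2 and -2.16 for Nrxn3 from E15 to E18. From E18 to P4 they were 3.05 for Cbln2, 3.02 for Cbln4 and 1.24 for Nrxn2.

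In Pou4f1-positive wells 1 of 8 members changed from E11 to E13 (1.78% of genes called) and 1 from E18 to P4 (20.4%). None changed from E13 to E15 (0.11%), E15 to E18 (0.159%), P4 to P7 (0.00612%) or P7 to adult (3.68%), with 3, 1, 0 and 0 members at an unadjusted p under 0.05 in edgeR and 1, 1, 0 and 0 called by DESeq2. Without E18 replicate 2, which leaves 1 plate at E18, the log2 fold change of Cbln2 was -3.29 from E15 to E18. From E18 to P4 it was 1.90 for Cbln2 and 1.43 for Cbln4. A test for any difference among the 7 stages called 4 of 8 members over all kept wells (46.4% of genes) and the same 4 in Pou4f1-positive wells (49.4%). These were Cbln2 (edgeR adjusted p = 0.0476 and 0.00623), Cbln4 (0.000737 and 9.18e-06), Nrxn3 (0.00446 and 0.00055) and Nlgn1 (0.00771 and 0.00455).

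Within plates, 6 of the 8 members were higher in Pou4f1-positive than in Pou4f1-negative wells, in a comparison where 40.4% of 14476 genes were called. The largest differences were those of Cbln4 (log2 2.30 ± 0.33 SE, edgeR adjusted p = 2.13e-05) and Cbln2 (2.02 ± 0.23, edgeR adjusted p = 2.14e-06). At P7 Cbln4 stood at 197 and 189 CPM in Pou4f1-positive wells and at 14.8 and 91.5 CPM in Pou4f1-negative wells of the same plates. Nrxn2 (0.96 ± 0.12, edgeR adjusted p = 7.11e-06), Nlgn3 (0.87 ± 0.20, 0.00186) and Nlgn2 (0.59 ± 0.10, 0.000117) were higher too. Cbln1 was higher by 0.91 ± 0.34 (edgeR adjusted p = 0.0397), a call that was lost under DESeq2 size factors (0.0834) and when any 1 of 8 plates was left out.

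Nrxn3 and Nlgn1 did not pass this test. Nrxn3 differed by 0.78 ± 0.43 (edgeR adjusted p = 0.154) and Nlgn1 by 0.14 ± 0.17 (edgeR adjusted p = 0.563). The sign for Nrxn3 varied over the plates. It was lower in the Pou4f1-positive than in the Pou4f1-negative wells on both P4 plates (205 against 549 and 147 against 745 CPM), on E11 replicate 1 (346 against 1386) and on adult replicate 2 (124 against 715), and higher on the other series plates, such as E15 (2176 against 664 and 2227 against 1644) and E18 (1166 against 260 and 2615 against 260). Pou4f1-negative wells were shallower, with a median of 8248 and 3906 counts at P4 against 20392 and 20624, and a well of few counts can miss Pou4f1.

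At P4 and P7 the Pou4f1-positive wells were further split by 4 markers of habenular neuron types. Gpr151 encodes an orphan receptor of habenular axons, Tac1 the precursor of substance P, which marks the dorsal medial habenula, and Tac2 and Chat the neurokinin B precursor and the acetylcholine-synthesising enzyme, which lie with the ventral medial habenula. A well was positive with 3 or more counts of the marker (1 or more for Chat). All 4 splits cut the same 1110 wells of the same 4 plates, so they are not independent of each other.

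Tac1-positive wells (201 against 909) held more of 4 of the 8 members, where 11.4% of 13370 genes were called. Nrxn3 stood at 656, 202, 552 and 450 CPM in Tac1-positive wells of P4 replicates 1 and 2 and P7 replicates 1 and 2, and at 144, 142, 126 and 128 CPM in the Tac1-negative wells. Every plate showed the higher level, with the smallest gap on P4 replicate 2, and the fitted difference was 1.72 ± 0.19 (edgeR adjusted p = 1.08e-05). Cbln2 was at 437, 416, 422 and 477 CPM against 207, 192, 186 and 240 (1.07 ± 0.08, edgeR adjusted p = 1.94e-07), with no overlap between the classes. Cbln1 (1.20 ± 0.19, edgeR adjusted p = 0.000339) and Nlgn1 (0.86 ± 0.08, edgeR adjusted p = 4.61e-06) were higher as well. Cbln4 differed by -0.30 ± 0.09 (edgeR adjusted p = 0.0511), and passed with 1 or more Tac1 counts as the cut (-0.26, 0.0315) and with the adult plates added (-0.47, 0.0161). Only 27 and 21 wells of the P4 plates were Tac1-positive.

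Chat-positive wells (581 against 529) held less of 4 members and more of 1, where 11.5% of 13542 genes were called. Cbln1 stood at 32.5, 27.6, 37.8 and 41.6 CPM against 65.5, 56.0, 84.5 and 112 (log2 fold change -1.13 ± 0.10, edgeR adjusted p = 6.86e-06). Nlgn1 stood at 365, 421, 414 and 331 CPM in Chat-positive and 563, 574, 798 and 738 CPM in Chat-negative wells (-0.76 ± 0.09, edgeR adjusted p = 6.29e-05). On each of the 4 plates both genes were lower in the Chat-positive wells. Cbln2 (-0.86 ± 0.08, edgeR adjusted p = 4.78e-06) and Nrxn3 (-1.06 ± 0.15, edgeR adjusted p = 0.000327) were lower too. Cbln4 was the exception, with 132, 133, 225 and 224 CPM against 124, 112, 163 and 151 (0.39 ± 0.08, edgeR adjusted p = 0.00728), a call lost at a cut of 3 or more Chat counts (0.31, edgeR adjusted p = 0.0648) and without P7 replicate 1 (0.33, 0.0971) or P7 replicate 2 (0.31, 0.0815).

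**Figure D3:**
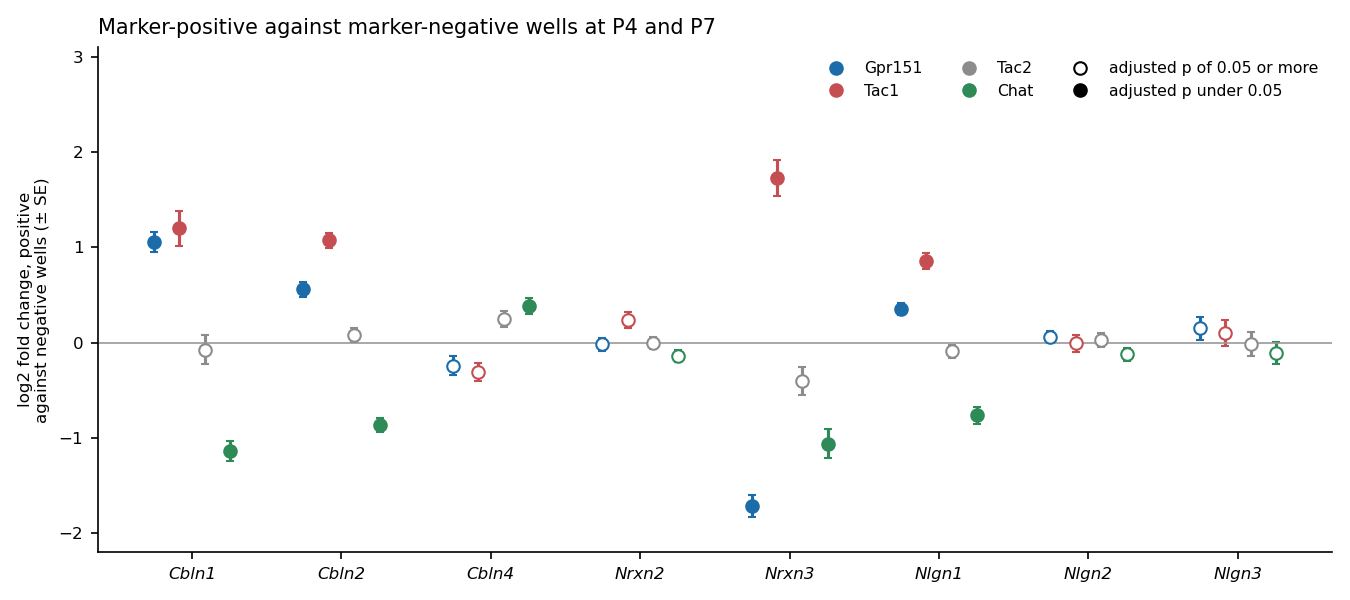
Log2 fold change (± SE, edgeR, n = 4 plates) of 8 members between marker-positive and marker-negative wells of the P4 and P7 plates, 1 colour a marker, filled where the adjusted p was under 0.05. Nrxn3 runs from -1.71 for Gpr151 to 1.72 for Tac1, and Cbln4 is the only member above 0 for Chat with a filled point.

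Gpr151-positive wells (430 against 680) held more Cbln1, Cbln2 and Nlgn1 and less Nrxn3, where 10.3% of 13537 genes were called. Nrxn3 was at 88.1, 86.3, 86.3 and 98.5 CPM in Gpr151-positive wells and at 266, 175, 385 and 386 CPM in Gpr151-negative wells, a difference of -1.71 ± 0.12 (edgeR adjusted p = 5.19e-09). The positive wells were nearly level over the 4 plates, and the range lay in the negative wells. Cbln1 stood at 64.1, 55.8, 77.2 and 104 CPM against 34.5, 26.2, 41.0 and 43.6 (1.05 ± 0.10, edgeR adjusted p = 5.43e-07). Cbln2 was higher by 0.56 ± 0.08 (edgeR adjusted p = 2.73e-05) and Nlgn1 by 0.35 ± 0.06 (edgeR adjusted p = 0.00057), the latter call lost when the adult plates were added (0.25, edgeR adjusted p = 0.15). Cbln4 differed by -0.24 ± 0.10 (edgeR adjusted p = 0.172), and passed with 10 or more Gpr151 counts as the cut (-0.55, 0.0012) and without P4 replicate 1 (-0.40, 0.0104).

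Tac2 separated none of the 8 members (583 wells against 527, 3.18% of 13316 genes called). The nearest to the threshold were Cbln4 (0.25 ± 0.08, edgeR adjusted p = 0.102) and Nrxn3 (-0.40 ± 0.15, edgeR adjusted p = 0.191), and 2 members had an unadjusted p under 0.05. Without P7 replicate 2 Nrxn3 passed (-0.69, edgeR adjusted p = 8.89e-05). Nrxn2, Nlgn2 and Nlgn3 passed the test for none of the 4 markers, with the exception of Nrxn2 for Tac1 when P4 replicate 2 was left out (0.24, edgeR adjusted p = 0.0463).

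The splits also differed in depth. Median counts per well were 20550 to 23427 for Gpr151-positive and 17188 to 22471 for Gpr151-negative wells, and 23119 to 26961 for Chat-positive and 15648 to 18484 for Chat-negative wells. They were 21627 to 23594 for Tac1-positive and 17803 to 22532 for Tac1-negative wells, and 23149 to 24360 for Tac2-positive and 9014 to 19220 for Tac2-negative wells. The part of depth in these differences and in their change from P4 to P7 was not tested. With wells thinned to 2000 UMIs, Nrxn3 was found in 9.96% to 11.1% of Gpr151-positive and 23.0% to 35.1% of Gpr151-negative wells, and Cbln1 in 5.35% to 8.35% of Chat-positive and 8.05% to 14.3% of Chat-negative wells. For Nrxn3 in Tac1-positive wells the thinned share on P4 replicate 2 was 19.3% against 19.6%, where the level had been 202 against 142 CPM, and it was 37.0% to 55.9% against 15.4% to 17.6% on the other 3 plates.

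**Figure D4:**
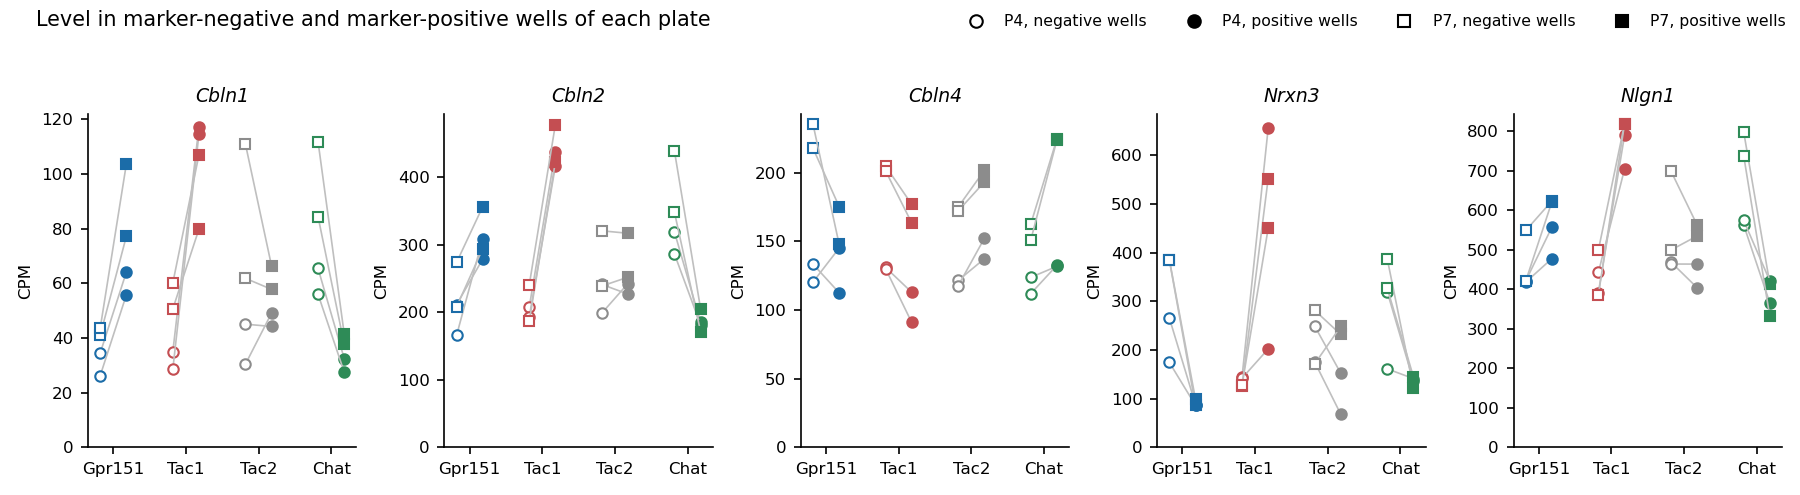
CPM of 5 members in marker-negative (open) and marker-positive (filled) wells, with the 2 values of a plate joined by a line (circles, P4; squares, P7; 4 plates a marker). Nrxn3 lies at 86.3 to 98.5 CPM in Gpr151-positive wells on all 4 plates, and Cbln2 at 416 to 477 CPM in Tac1-positive wells.

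Whether a split differed between P4 and P7 was tested by an interaction term. This called 1 of 8 members for Gpr151 (0.251% of genes called), 0 for Tac1 (0.00748%, 1 member at an unadjusted p under 0.05), 1 for Tac2 (0.436%) and 1 for Chat (0.561%). The called members were Nrxn3 for Gpr151 and Tac2, and Nlgn1 for Chat. Single plates moved these calls: without P4 replicate 1 the interaction of Nrxn3 passed for Tac1 (1.51, edgeR adjusted p = 8.34e-12) and for Chat (-1.20, 8.67e-09) and that of Cbln1 for Tac1 (-1.23, 0.00364). Without P4 replicate 2 that of Cbln4 passed for Gpr151 (-0.75, edgeR adjusted p = 0.0198), while Nrxn3 for Gpr151 (-0.48, 0.602) and Nlgn1 for Chat (-0.43, 0.424) were lost. Without P7 replicate 1 that of Cbln1 passed for Tac2 (-1.05, edgeR adjusted p = 0.0162) and Nrxn3 for Gpr151 was lost (-0.66, 0.165). Without P7 replicate 2 Nrxn3 passed for Chat (-0.89, edgeR adjusted p = 0.0225) and Nlgn1 for Chat was lost (-0.38, 0.559). Each fit without a plate left 1 plate at that age, so its p-values rest on the spread of the 2 plates of the other age and are given as description. For spliced counts alone none of the 3 called interactions passed.

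No member, and no other gene, passed the test between the left and the right habenula at E18 in the fit without the replicate number (0.0% of 15489 genes over all kept wells and 0.0% of 14614 in Pou4f1-positive wells, edgeR, with 0 members called by DESeq2). At an unadjusted p under 0.05 there were 182 and 155 genes, 0 and 1 of them members. Cbln1 stood at 83.2 and 44.9 CPM on the left, 139 and 76.0 on the right and 69.6 for both sides, so left replicate 1 lay between the right plates and left replicate 2 below both. In Pou4f1-positive wells it was at 76.8 and 46.8 CPM on the left and 126 and 87.4 on the right, without overlap. Its difference from left to right was 0.70 ± 0.32 over all kept wells (edgeR adjusted p = 1) and 0.74 ± 0.25 in Pou4f1-positive wells (edgeR adjusted p = 1). Cbln4 was at 41.6 and 59.0 CPM on the left and 82.9 and 59.1 on the right, and Nlgn1 at 652 and 978 on the left and 672 and 521 on the right. Haemoglobin-type erythroid markers summed to 19048 and 17219 CPM on the left plates and 3410 and 265 CPM on the right plates, and their part in these values was not tested.

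Most UMIs of Nrxn3 and Nlgn1 were unspliced. Over the 20 plates the unspliced share was 92.9% for Nrxn3 (82.0% to 95.9% per plate) and 91.1% for Nlgn1 (88.7% to 93.8%), against 17.7% to 29.2% for all genes together. These are also the longest members, 1612 kb and 906 kb, of which 0.782% and 1.48% is exonic. Cbln1 gave 0 unspliced of 4816 UMIs, Cbln2 0.848%, Nlgn3 2.39% and Cbln4 5.21%, while Nrxn2 (16.8%) and Nlgn2 (12.3%) lay between. The Cbln4 share was 16.4% and 12.2% at E11, 20.0% and 21.3% at E15 (of 15 and 75 UMIs), and 14.0% and 10.8% at E18. It was 2.99% at E12, 0% at E13 (of 8 and 4 UMIs), and 0.971% to 3.62% on the plates of P4 to adult. The C57BL/6 plates of E18 gave 8.29% to 20.3%. All levels given above for Nrxn3 and Nlgn1 are therefore mainly levels of intron-containing RNA. On the same strand, Gm23989, Gm48692 and Gm48700 lie within introns of Nrxn3, and Gm37573 within an intron of Nlgn1. The part of these genes in the unspliced UMIs was not tested.

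As a share of spliced UMIs, the spliced UMIs of Nrxn3 alone came to 73.2 and 61.6 CPM at E11, 85.4 and 45.3 at E13, 126 and 172 at E15, and 30.0 and 192 at E18. The P4 plates gave 18.4 and 12.0 CPM, the P7 plates 22.9 and 23.8, and the adult plates 99.5 and 22.1. E11 and E13 overlapped, E18 replicate 1 lay below both E11 plates, and the P4 and P7 plates lay below every earlier plate. Counting spliced UMIs only changed none of the stage calls of the members in either set of wells. Nlgn2 was more often unspliced on the E18 series plates (37.0% and 29.4%) than on the plates of P4 to adult (6.74% to 9.61%), and the E15 plates (17.9% and 20.9%) and the C57BL/6 plates of E18 (7.78% to 14.6%) lay below those E18 series plates.

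**Figure D5:**
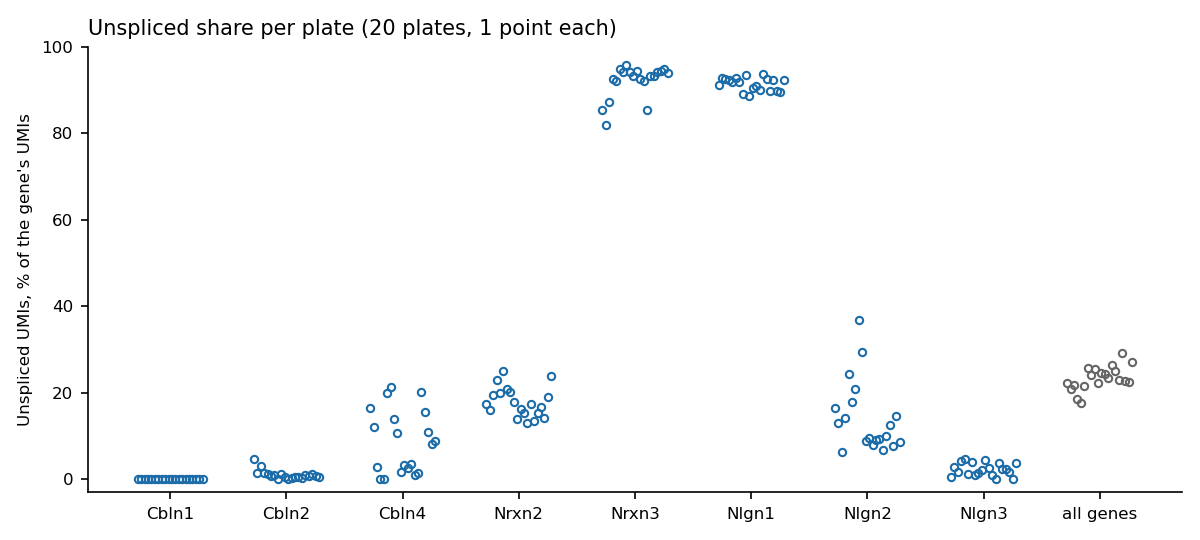
Unspliced UMIs as a percentage of a gene's UMIs, 1 point a plate for 20 plates, with all genes together in grey. Nrxn3 lies between 82.0% and 95.9% and Nlgn1 between 88.7% and 93.8%, Cbln1 is at 0 on every plate, and all genes lie between 17.7% and 29.2%.

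Pairs of members in the same Pou4f1-positive well were described by the observed share of wells holding both at 2000 UMIs, divided by the product of the 2 shares. At P4 and P7 Cbln1 and Cbln2 were found together 1.21 to 1.25 times as often as that product. Cbln1 and Cbln4 were found together 0.892 and 0.798 times as often at P4 and 0.761 and 0.622 times at P7. Cbln4 and Nlgn1 gave 0.836 to 0.96 there and 0.629 to 0.829 on the 5 plates of the second set. Wells of a plate are not replicates, and these ratios carry no test.

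The wider pathway was read from a list of 39 binding partners and scaffolds, of which 38 were tested over all kept wells. From E11 to P7, 13 rose and 6 fell (50.0% called, beside 28.6% of all genes), with a median log2 fold change of 0.81 beside 0.03 over all genes. Nxph1, a secreted neurexin ligand, rose by 6.11 ± 0.36 (edgeR adjusted p = 3.67e-06), and the leucine-rich repeat proteins Lrrtm1 (2.98 ± 0.26, 3.95e-05) and Lrrtm3 (3.20 ± 0.49, 0.000846), postsynaptic neurexin receptors, rose as well. The calsyntenin Clstn1 (2.05, edgeR adjusted p = 0.000853), the adaptor Lin7b (2.49, 0.00217) and the scaffold Dlg2 (2.23, 0.00241) rose, while the adaptor Apba2 (-1.95, 0.00086) and Khdrbs1, an RNA-binding protein that controls neurexin splicing (-1.53, 0.000961), fell. In Pou4f1-positive wells 15 of 37 rose and 7 fell (59.5%, beside 35.0% of all genes).

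From E18 to P4, 10 of the 38 partners rose and 3 fell over all kept wells (34.2%, beside 19.6% of all genes). Grid1, a receptor that cerebellins bind, changed by 0.49 from E11 to P7 (edgeR adjusted p = 0.541). It was lower in Gpr151-positive wells, with a log2 fold change of -0.72 (edgeR adjusted p = 0.000623). Of the partners, 20 of 36 were higher and 4 lower in Pou4f1-positive wells (66.7%, beside 40.4% of all genes). For Gpr151, 7 of 34 were higher and 5 lower (35.3%, beside 10.3%), and for Tac1 again 7 and 5 (35.3%, beside 11.4%). For Tac2 it was 1 and 2 (8.82%, beside 3.18%), and for Chat 3 and 8 (32.4%, beside 11.5%).

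The genes most like each member were those with the highest Pearson correlation of log2(CPM + 1) over the 15 series plates, among 10817 genes with a mean of at least 10 CPM. The plates share their cell mixture and depth, so these are descriptions. For Cbln4 they were Dlg2 (r = 0.975), Ryr2 (0.968) and Car10 (0.964), and for Cbln2 Mcub (0.931), Robo3 (0.89) and Gng8 (0.876). For Nrxn3 they were Tle4 (0.918), Ctnnbl1 (0.904) and Gm12504 (0.888), and for Nlgn1 Myo3b (0.947), Lrrtm4 (0.934) and Arsb (0.933). Klf4 led for Cbln1 (0.907), Prkcz for Nrxn2 (0.915) and Edil3 for Nlgn2 (0.891).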

How the data were processed

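The authors deposited expected counts per gene and well for total, spliced and unspliced transcripts, with no scaling between wells. Each deposited count is a UMI count corrected for collisions among 4096 possible UMIs, and inverting that correction gave whole UMIs within 1e-06 for every value. Reads were trimmed and aligned to mm10, per the submitters' processing notes, which name Trim Galore and STAR 2.5.3a. For the counting program, its annotation and its use of strand, the sources used here give nothing. The tables hold 92 spike-in rows, which were left out. Wells are identified by plate and well number, so barcodes could not be compared between plates.

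Counts of kept wells were summed per plate, rounded, and tested with edgeR 4.0.16 (R 4.3.3; quasi-likelihood, filterByExpr, TMM) over all genes passing the filter, with Benjamini-Hochberg adjustment at 0.05. The planned test assumed raw counts, so the deposited expected counts were rounded. Stage contrasts share 1 fit of 14 plates, in which E12 is not used. Leaving out a plate leaves 1 plate at its stage, so p-values of that fit rest on the spread of the other stages. Contrasts of wells within plates carry the plate as a block. With adult plates added, adult replicate 1 is dropped for Tac2, where it had 0 negative wells. Doublets were not called; an alternative leaves out wells above 3 times their plate's median. Depth was 758697 to 7760372 counts a plate. In simulated data 200 genes were changed. There the E11 to P7 fit over 17453 genes recovered 2% of 2-fold and 39% of 4-fold changes (0.035% of unchanged genes called). Left against right over 15489 genes gave 32% and 74%, and the Gpr151 split over 12677 genes 83% and 97%. The deposited data called 28.6% of genes from E11 to P7, so the simulated shares do not give the power of that fit. The simulated Gpr151 split used another filter than the reported one, which tested 13537 genes.

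Levels are CPM of summed counts. Shares carry counting error only. Of the IDs, 37938 of 37994 and 36050 of 36104 were found in GENCODE M21 (GRCm38), the source of coordinates. The RefSeq promoter table held 5 of the 9 members. For a check, the 50 bases after the start matched the GENCODE transcript at all 5 starts that both share. The members and all gene lists were chosen with earlier results of these data known. All members are named, and of the partners the 8 with the smallest adjusted p from E11 to P7 plus Grid1; some genes that the rule would name are not reported here. The E18 plate of both sides is titled E1; its other labels were followed. Alternatives were DESeq2 1.42.0, its size factors, no low-count filter, recovered UMIs, spliced counts, other well and marker cuts, a replicate block and leaving out each plate.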

Additional observations from a re-analysis of the deposited data

Results flagged for a closer look

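In 3 cases the difference between marker classes at P4 and P7 itself differed between the 2 ages by the interaction term of the edgeR fit. The Gpr151-linked difference of Nrxn3 changed by -0.742 from P4 to P7 on the log2 scale (± 0.16 SE, adjusted p = 0.036), from 88.1 against 266 and 86.3 against 175 CPM at P4 to 86.3 against 385 and 98.5 against 386 CPM at P7. The gap was wider on both P7 plates than on either P4 plate, and the interaction did not pass for spliced counts (adjusted p = 0.989), at a cut of 10 or more counts (0.956), without P4 replicate 2 (0.602) or without P7 replicate 1 (0.165).

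The Tac2-linked difference of Nrxn3 changed by 1.06 (± 0.18 SE, edgeR adjusted p = 0.000974). Tac2-positive wells held 152 and 68.1 CPM and Tac2-negative wells 250 and 176 CPM at P4, against 232 and 249 and 282 and 172 CPM at P7, so the sign was mixed at P7. It did not pass for spliced counts (edgeR adjusted p = 0.943).

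The Chat-linked difference of Nlgn1 changed by -0.503 (± 0.11 SE, edgeR adjusted p = 0.0306), with Chat-negative wells at 563 and 574 CPM at P4 and 798 and 738 CPM at P7. It did not pass for spliced counts (edgeR adjusted p = 0.248), at a cut of 3 or more counts (0.256), without P4 replicate 2 (0.424) or without P7 replicate 2 (0.559).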

How the results depend on the processing

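Of 364 values of called members under an alternative, 323 kept direction and call, 41 kept direction only and 0 changed sign (with every plate kept 164, 10 and 0 of 174). For the fit of the 4 plates alone, over all kept wells, the members called numbered 7 from E11 to P7 (against 3), 1 from E11 to E13 (0), 0 from E18 to P4 (1) and 2 from P4 to P7 (0). With no low-count filter they numbered 2, 4, 2 and 2 for the steps from E11 to E13, E13 to E15, E15 to E18 and E18 to P4 over all kept wells, and 3, 4, 2 and 2 in Pou4f1-positive wells, against 0, 0, 0 and 1 and 1, 0, 0 and 1. DESeq2 called 2 from E11 to E13 in both, and 1 from E13 to E15 and 1 from E15 to E18 in Pou4f1-positive wells, the latter also under DESeq2 size factors. In Pou4f1-positive wells, leaving out wells above 3 times the median, or asking for 2 Pou4f1 counts, gave 2 from E11 to E13 and 1 from E15 to E18. The P4 to P7 interactions fell to 0 members for spliced counts with Gpr151, Tac2 and Chat, for 10 or more Gpr151 counts and for 3 or more Chat counts. The share of all genes called is not given for these settings or for fits without a plate, so the counts are not read as results about the members. From E13 to E15 over all kept wells with no low-count filter, the SE was 0.307 for Cbln2, 0.307 for Nrxn3, 0.306 for Nlgn1 and 0.446 for Cbln4. SEs so alike for 3 genes carry little of each gene's own spread between plates. The cause of the shifts in these counts was not tested.

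Leaving out each plate in turn, members called ranged from 1 to 2 (E11 to P7), 0 to 2 (E15 to E18) and 0 to 3 (E18 to P4) over all kept wells; 0 to 1 (E11 to E13), 0 to 1 (E15 to E18) and 0 to 3 (E18 to P4) in Pou4f1-positive wells; and 0 to 1 for Tac2. The P4 to P7 interactions ranged from 0 to 1 for Gpr151, 0 to 2 for Tac1, 1 to 2 for Tac2 and 0 to 2 for Chat. Of 81 group means of the level (9 genes in 9 groups), 79 moved by less than the plate spread at 2000 or more counts a well, and of 81 group means of the share 65 moved by more than it at 1000 UMIs, 80 of 81 downward.

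Same-numbered plates of different stages share only a number: over 21 pairs of stages their deviations correlated from -0.50 to 0.40 (median 0.04), above 0.1 in 6, and for left and right, the 1 such pair of the second set, at 0.28. With the replicate number as a block, 9 of 9 called members' values kept their call, 1 member was added (Cbln4 from E15 to E18 in Pou4f1-positive wells, 2.28, edgeR adjusted p = 0.0385), the genes called went from 16 to 4 (E13 to E15) and from 34 to 16 (E15 to E18) over all kept wells, and from 0 to 6 between left and right, where 0 members passed.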

Other observations

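On the C57BL/6 plates of E18, Pou4f1-positive wells were also split by Gpr151, chosen after the values were seen and given with no test. Cbln4 stood at 2.62, 0, 11.7, 35.1 and 25.9 CPM in Gpr151-positive wells (left replicates 1 and 2, right replicates 1 and 2, both sides) and at 50.4, 79.9, 94.3, 72.9 and 80.9 CPM in Gpr151-negative wells. It was lower in the positive wells on all 5 plates, which held 47, 7, 35, 14 and 21 such wells, so the value of 0 rests on 7 wells.

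Cbln2 went the other way on the same plates, with 641, 490, 393, 368 and 660 CPM in Gpr151-positive and 274, 190, 216, 310 and 283 CPM in Gpr151-negative wells. Nlgn1 was at 1180, 1857, 1095, 653 and 1586 CPM against 514, 663, 548, 520 and 725 CPM, higher on each plate. Nrxn3 was at 266, 691, 233, 210 and 390 CPM against 759, 520, 703, 718 and 914 CPM, lower on 4 of 5 plates, with left replicate 2 the exception.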
